A study of Mus musculus with 12 samples.

Results

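Perilipins are the proteins that coat lipid droplets, and all 5 mouse genes of the family, Plin1, Plin2, Plin3, Plin4 and Plin5, were followed here. They were chosen by name: every row of a muscle RNA table carrying 1 of these symbols, which gave 5 of 20194 genes, and every open-chromatin peak annotated to 1 of them, which gave 6 of 38244 peaks. All 5 genes and all 6 peaks passed the filters on low values. The study asked how transcription is controlled in muscle during cancer cachexia, the wasting that accompanies some tumours.

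A lipid droplet stores triglyceride behind a single layer of phospholipid, and the perilipins on its surface decide how far lipases reach the store. Plin1 is the coat of fat cells and holds back the lipase Pnpla2 by binding its activator Abhd5. Plin2 is found on droplets in most tissues and is degraded when no droplet holds it. Plin3 moves between the cytosol and young droplets, Plin4 is abundant in fat cells and also made in muscle, and Plin5 marks oxidative tissues such as heart, liver and slow muscle, where it tethers droplets to mitochondria. Several of these genes, Plin2, Plin4 and Plin5 among them, are known targets of the peroxisome proliferator-activated receptors (PPARs), which fatty acids activate.

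Muscle RNA came from C57BL/6 mice on a regular diet that had been injected with PBS or, subcutaneously, with 500000 Lewis lung cancer (LLC) cells, and tissue was taken after 22 days. There were 3 libraries of polyA RNA in each group. The labels name neither the muscle nor the age or sex of the mice. Open chromatin was measured by ATAC-seq, which counts cuts of a transposase in accessible DNA, in C2C12 cells (a mouse muscle line whose genotype is labelled C3H) differentiated in horse serum and kept in normal medium or exposed for 24 hours to conditioned medium of the colon tumour line C26, again with 3 libraries in each group. Their cell type is labelled myoblast although their titles speak of myotubes. The cultures were seeded in triplicate, and nothing ties the mouse libraries to separate animals, so p-values measure the spread between these libraries, which may be technical. The 2 assays used different tumours and different material, so they are described separately.

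The RNA libraries held 25.7 to 32.5 M read ends in genes. Genes of skeletal muscle fibres dominated them, with 8 of them summing to 42879 to 48108 FPKM (fragments per kilobase of transcript, scaled to library size) in PBS and 47145 to 53726 FPKM in LLC libraries, so the label muscle was met. Material of other kinds varied between libraries. The sum of 9 white adipocyte markers was 320, 453 and 259 FPKM in PBS 1 to 3 and 234, 236 and 1169 FPKM in LLC 1 to 3, whereas the brown fat marker Ucp1 was listed at 0 everywhere except for 0.034 FPKM in LLC 1. Sums of 8 neutrophil and marrow markers ran from 131 to 12186 FPKM in PBS and from 191 to 10695 FPKM in LLC, with PBS 1 and LLC 3 low. Epidermal markers summed to 3.45 to 131 FPKM against 72.5 to 1442 FPKM, tendon markers to 209 to 329 FPKM against 15.2 to 162 FPKM, endothelial markers to 126 to 149 FPKM against 238 to 278 FPKM, and macrophage markers to 117 to 205 FPKM against 136 to 175 FPKM. In bulk tissue, fewer cells of a type and less RNA per cell cannot be told apart. In the ATAC libraries, peaks were annotated to the muscle genes Myod1, Myog, Mef2c, Des and Mymk, but none to Ckm, and the fat genes Adipoq, Lep and Pparg carried peaks too.

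The promoters of 4 perilipins are shown because they differ in what the ATAC data cover: those of Plin2, Plin3 and Plin4 lie under an annotated peak and that of Plin5, the perilipin with the smallest p in the RNA comparison, does not. Each line gives the 250 bases before the RefSeq start (GRCm38.p6), 5′ to 3′ on the minus strand, where all 5 genes lie. Capitals mark the motif matches described after them, cut at the start site where a match runs past it.
Plin2, chr4:86670060-86670309: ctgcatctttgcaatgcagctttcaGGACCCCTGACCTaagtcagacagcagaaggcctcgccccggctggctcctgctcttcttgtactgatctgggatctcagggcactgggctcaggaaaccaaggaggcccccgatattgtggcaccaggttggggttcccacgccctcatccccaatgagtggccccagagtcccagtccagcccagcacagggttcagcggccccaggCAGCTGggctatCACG
Plin3, chr17:56290512-56290761: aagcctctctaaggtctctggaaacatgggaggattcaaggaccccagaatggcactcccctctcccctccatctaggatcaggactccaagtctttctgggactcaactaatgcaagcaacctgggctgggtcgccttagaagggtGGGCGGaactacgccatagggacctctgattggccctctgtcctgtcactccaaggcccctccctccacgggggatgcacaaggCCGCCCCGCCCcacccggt
Plin4, chr17:56109783-56110032: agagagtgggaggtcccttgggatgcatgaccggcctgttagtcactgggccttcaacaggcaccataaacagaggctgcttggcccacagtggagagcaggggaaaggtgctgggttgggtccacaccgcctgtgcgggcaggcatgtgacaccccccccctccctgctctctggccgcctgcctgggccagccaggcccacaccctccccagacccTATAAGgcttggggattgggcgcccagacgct
Plin5, chr17:56117549-56117798: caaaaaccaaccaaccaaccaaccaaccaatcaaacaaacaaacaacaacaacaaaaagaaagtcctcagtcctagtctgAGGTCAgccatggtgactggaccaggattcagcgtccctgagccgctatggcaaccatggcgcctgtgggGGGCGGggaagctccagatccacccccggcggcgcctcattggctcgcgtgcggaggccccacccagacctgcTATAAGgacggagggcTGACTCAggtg

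In the Plin2 window, the nuclear receptor motif AGGTCA begins 218 bases before the start, on the opposite strand, as the inner copy of a DR1, the pair of such motifs spaced by 1 base to which PPARs bind. The DR1 begins 225 bases before the start, and up to 2 mismatches in its 12 fixed bases were allowed. Among all 32851 promoters of the table, each 300 bases long with 50 after the start, 3.9% hold a DR1 under this rule and 16.3% hold AGGTCA, on either strand. The Plin2 window further holds the E-box CAGCTG, present in 16.3% of promoters, and ACGTG, the core of the hypoxia response element, which reads on both strands across the start and is present in 19.6%.

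The Plin5 window holds AGGTCA 170 bases before the start and the AP-1 motif TGANTCA 11 bases before it, a motif found in 7.8% of promoters. It also holds GGGCGG, the GC box, found in 35.7% of promoters, 100 bases before the start. The Plin3 window has 3 GC boxes, at 103, 19 and 14 bases before the start. The windows of Plin4 and Plin5 share TATAAG, at 32 and 27 bases before the start, which 7.4% of promoters hold and which was added to the search after the sequences had been read. TATAAA (13.6% of promoters), the glucocorticoid receptor motif TGTTCT (19.0%), the FOXO motif GTAAACA (3.6%) and the STAT motif TTCNNNGAA (8.3%) matched in none of the perilipin windows. These matches describe letters and not binding. The Plin1 window, not printed, holds 1 CpG and 54.0% G and C, against 6, 7, 6 and 11 CpGs and 61.6%, 60.0%, 65.2% and 58.0% in the windows of Plin2, Plin3, Plin4 and Plin5 and a median of 6.0 and 52.4% over all promoters.

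In muscle of LLC mice, 4 of the 5 perilipins, Plin2, Plin3, Plin4 and Plin5, were higher in every LLC library than in any PBS library, and Plin1 was not. LLC libraries all lay above PBS in 9.5% of the 12981 genes tested. The mean ratio of LLC to PBS was 1.41 for Plin2, 1.53 for Plin3, 2.32 for Plin4 and 2.88 for Plin5, against 1.12 for Plin1. None of these differences passed the test over all genes: limma called 0% of genes at an adjusted p under 0.05, whereas 5.82% of genes were higher in LLC at an unadjusted p under 0.05, among them the same 4 perilipins.

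Plin5, the droplet coat of oxidative fibres, gave 3.11, 2.95 and 3.79 FPKM in the PBS libraries (1 to 3, as throughout) and reached 9.57, 10.6 and 8.14 FPKM in the LLC libraries. The lowest LLC library was more than double the highest PBS library. The means were 3.28 ± 0.446 and 9.45 ± 1.26 FPKM (SD, n = 3 each). On the log2(FPKM + 1) scale the difference was 1.28 (SE 0.15, 95% interval 0.93 to 1.64), the 12th smallest p of the 12981 genes, with an adjusted p of 0.138 in limma. Its transcript (NM_025874, chr17:56111601-56117548) drew 204 to 711 read ends per library, and edgeR on those read ends gave a log2 difference of 1.50 with an adjusted p of 0.133. Leaving out any 1 library kept the difference between 1.20 and 1.38.

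Plin4, a coat of fat cells and muscle, measured 29.2, 31.2 and 19.2 FPKM in the PBS libraries and 38.3, 57.4 and 89.2 FPKM in the LLC libraries. The groups did not overlap, but the LLC libraries spread widely, with LLC 3 highest. The difference was 1.13 on the log2(FPKM + 1) scale (SE 0.35, 95% interval 0.28 to 1.99), with an adjusted p of 0.489 in limma, from means of 26.5 ± 6.44 and 61.7 ± 25.7 FPKM (SD, n = 3 each). LLC 3 also held the highest adipocyte marker sum, and without it the difference was 0.83. In LLC 1 and LLC 2 the adipocyte sums were below, and Plin4 above, those of every PBS library. The markers did not all do so singly. Adipoq, Lep, Retn, Adrb3 and Thrsp were below every PBS library in both, and Adig, Slc7a10 and Aqp7 were not. Cfd, the largest part of the sums, was at 169 FPKM in LLC 1 and 163 FPKM in LLC 2, against 168 FPKM in PBS 3. The part of adhering fat in the Plin4 difference was not tested. The transcript (NM_020568, chr17:56100591-56109802) gave 3819 to 20568 read ends per library.

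Plin2, the coat found in most tissues, measured 16.8, 21.3 and 25.3 FPKM in PBS and 32.3, 29.5 and 27.4 FPKM in LLC libraries. The gap between the groups was narrow, from PBS 3 to LLC 3. The difference was 0.49 on the log2(FPKM + 1) scale (SE 0.17, 95% interval 0.07 to 0.91), with an adjusted p of 0.571 in limma, from means of 21.1 ± 4.24 and 29.7 ± 2.48 FPKM (SD, n = 3 each). Its transcript is NM_007408 (chr4:86656565-86670059).

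Plin3, the coat shared between cytosol and young droplets, measured 8.94, 12.9 and 16.3 FPKM in PBS and 16.6, 22.9 and 18.8 FPKM in LLC libraries. PBS 3 and LLC 1 were nearly level, so the groups were separated by a small margin. The difference was 0.60 on the log2(FPKM + 1) scale (SE 0.24, 95% interval 0.01 to 1.19), with an adjusted p of 0.637 in limma, from means of 12.7 ± 3.70 and 19.4 ± 3.22 FPKM (SD, n = 3 each). Its transcript is NM_025836 (chr17:56278962-56290511). PBS 1 was the lowest library for both Plin2 and Plin3, and without it their differences were 0.34 and 0.39.

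Plin1, the coat of fat cells, measured 14.8, 22.4 and 11.2 FPKM in PBS and 10.5, 7.23 and 36.6 FPKM in LLC libraries. LLC 3 was the highest of the 6 libraries, while LLC 1 and LLC 2 lay below all PBS libraries. The difference was -0.12 on the log2(FPKM + 1) scale (SE 0.60, 95% interval -1.59 to 1.36), with an adjusted p of 0.9998 in limma, from means of 16.1 ± 5.69 and 18.1 ± 16.1 FPKM (SD, n = 3 each). That interval includes both a clear fall and a clear rise. Without LLC 3 the difference was -0.76, with an unadjusted p of 0.0715 and an adjusted p of 0.9998 in limma. Without LLC 2 it was 0.33. Plin1 (NM_001113471, chr7:79721164-79732776) ranked the libraries much as the adipocyte markers did, with LLC 3 first, then PBS 2 and then PBS 1 in both, and Cidec, a droplet protein of fat cells, was likewise highest in LLC 3 at 114.6 FPKM. The part of adhering fat in these values was not tested.

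**Figure D1:**
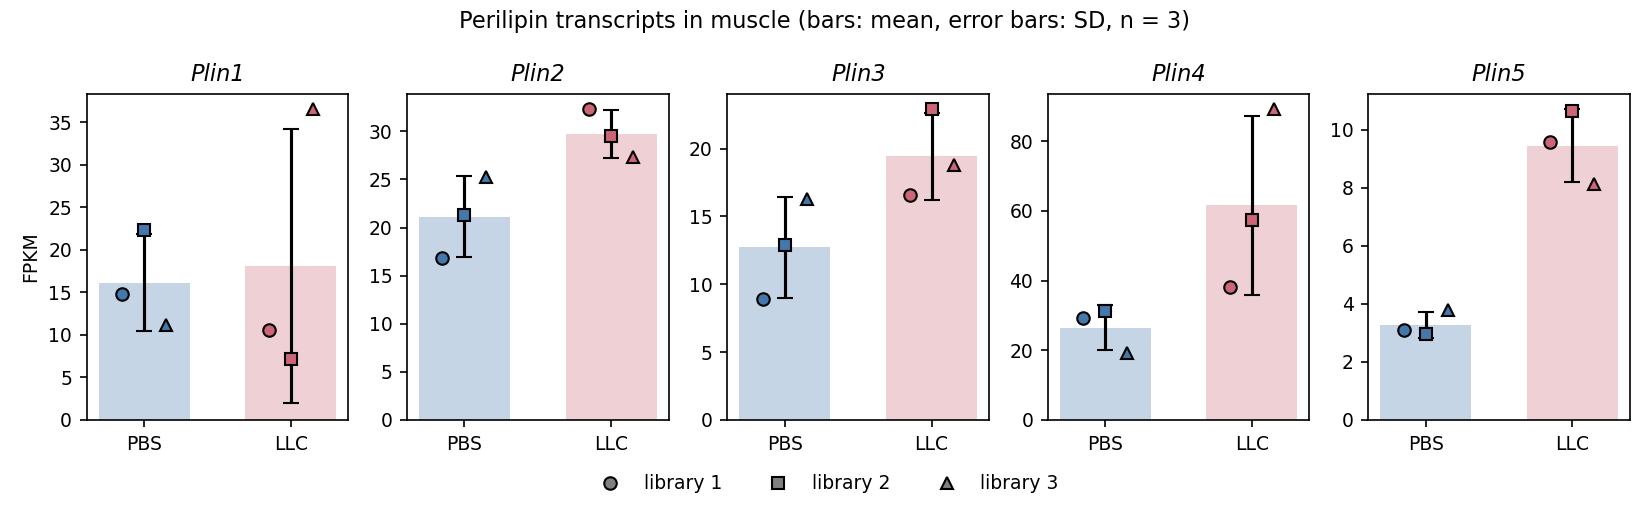
FPKM of each perilipin in the 3 PBS and 3 LLC muscle libraries, with symbols for the library number, bars for the mean and error bars for the SD (n = 3). Plin2 to Plin5 lie higher in all LLC libraries, and Plin1 ranges from 7.23 to 36.6 FPKM within the LLC group.

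Summed over the family, perilipin transcripts came to 72.9, 90.8 and 75.8 FPKM in PBS and to 107, 128 and 180 FPKM in LLC libraries. Every LLC library thus held more perilipin RNA per length than any PBS library. Without Plin1, the sums were 58.0, 68.4 and 64.6 FPKM in PBS and 96.8, 120 and 144 FPKM in LLC. Plin4 made up 33.2% ± 7.44 of the sum in PBS and 43.4% ± 7.06 in LLC, Plin5 4.17% ± 0.881 and 7.26% ± 2.39, Plin2 26.6% ± 5.82 and 22.8% ± 7.47, Plin3 16.0% ± 4.89 and 14.6% ± 3.83, and Plin1 19.9% ± 4.94 and 11.9% ± 7.55 (SD, n = 3 each). Each of these shares overlapped between the groups.

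The order of the levels in PBS muscle, by mean FPKM, was Plin4, Plin2, Plin1, Plin3 and Plin5. The first 4 overlapped with their neighbours, and Plin5 lay below all of them in every PBS library. In LLC muscle, Plin4, Plin2, Plin3 and Plin5 occupied separate ranges in that order, and Plin1, with its wide range, overlapped all but Plin4. Plin4 was the highest perilipin in 5 of the 6 libraries and Plin2 in PBS 3. Over the 6 libraries, 90.2% of tested genes had a lower mean FPKM than Plin4, 82.2% than Plin2, 74.1% than Plin1, 72.5% than Plin3 and 44.3% than Plin5.

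**Figure D2:**
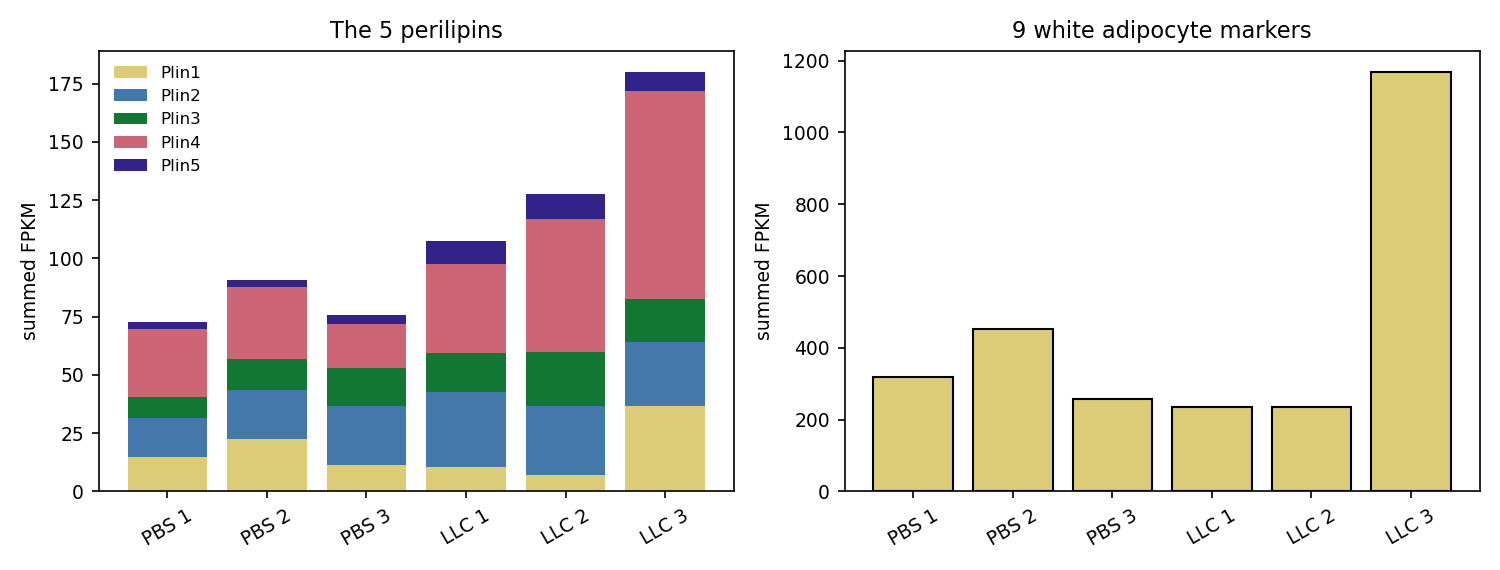
Summed FPKM of the 5 perilipins, stacked by gene, and of 9 white adipocyte markers in each of the 6 muscle libraries. The perilipin sum is above every PBS library in all 3 LLC libraries, whereas the adipocyte sum is high in LLC 3 (1169 FPKM) and below the PBS range in LLC 1 and LLC 2.

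Markers of other cells were set beside the 4 perilipins that were higher. The LLC libraries lay above all PBS libraries for 5 of 7 endothelial markers, not for Kdr and Emcn. They lay below them for 4 of 5 tendon markers, among them Mkx, which was too low to test. Over the 12981 genes tested, LLC libraries lay above all PBS libraries in 9.5% and below them in 512 genes. Most markers of both kinds thus separated the groups, the endothelial ones in the same direction as these perilipins and the tendon ones in the opposite direction. The part of these cells in the result was not tested. Slow fibre genes, with which Plin5 is known to be associated, summed to 554, 123 and 138 FPKM in PBS and to 1171, 657 and 324 FPKM in LLC libraries. Those sums overlapped between the groups, in PBS 1 and LLC 3. Of the 7 slow fibre genes, 7 had a log2 difference above 0, with a median of 2.07, and 4 were higher at an unadjusted p under 0.05 in limma. Epidermal markers were likewise above 0 in 7 of 7 tested, with a median of 3.63 and 4 at an unadjusted p under 0.05, and their sums were overlapping, with PBS 3 above LLC 2. Over all genes tested, 5.82% were higher at an unadjusted p under 0.05 in limma. Of the slow fibre genes, only Myh7 had all LLC libraries above PBS. The part of slow fibres and of epidermis in the perilipin differences was not tested. None of the epidermal, macrophage, adipocyte and neutrophil markers had all LLC libraries above PBS.

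Plin4, Plin5 and Plin3 lie on chromosome 17 within 232038 bp that hold 13 genes of the table, 12 of them tested. All 3 are on the minus strand. The 3′ end of Plin5 lies 1799 bp upstream of the Plin4 start, and the 3′ end of Lrg1, which encodes a secreted glycoprotein and is on the same strand, lies 2130 bp upstream of the Plin5 start. Lrg1 measured 14.5, 36.6 and 47.9 FPKM in PBS and 76.5, 121 and 60.3 FPKM in LLC libraries, again without overlap, a log2 difference of 1.45 (SE 0.49) with an adjusted p of 0.548 in limma. Next to it, Sema6b, a semaphorin, measured 2.01, 2.28 and 2.04 FPKM in PBS and 5.67, 6.84 and 6.08 FPKM in LLC libraries. Its log2 difference was 1.21 (SE 0.12), with an adjusted p of 0.108 in limma. Sema6b is named here after its values were seen.

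Plin4, Plin5, Lrg1 and Sema6b were thus 4 successive genes whose log2 differences exceeded 1. LLC libraries lay above all PBS libraries in 7 of the 12 tested genes of the interval and below them in 0. The interval was drawn around the perilipins, and Plin4, Plin5 and Plin3 are among those 7. Over all 12981 genes tested, LLC libraries lay above all PBS libraries in 1233 and below them in 512. On the 3′ side of Plin4, Ubxn6 differed by 0.28, with all LLC libraries above PBS. Hdgfl2, on the opposite strand, overlaps the 3′ end of Plin4 by 14 bp and differed by 0.19, with overlapping groups. Reads of both strands were counted, so reads in that overlap belong to both genes. Plin3 lies 161414 bp upstream of the Plin5 start, and its neighbour Ticam1 differed by 0.13 with overlapping groups, while Arrdc5 was too low to test. The neighbours of the other members, Pex11a (0.29) and the untested Kif7 beside Plin1, and LOC101055843 (0.73) and Dennd4c (0.19) beside Plin2, had overlapping groups as well.

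**Figure D3:**
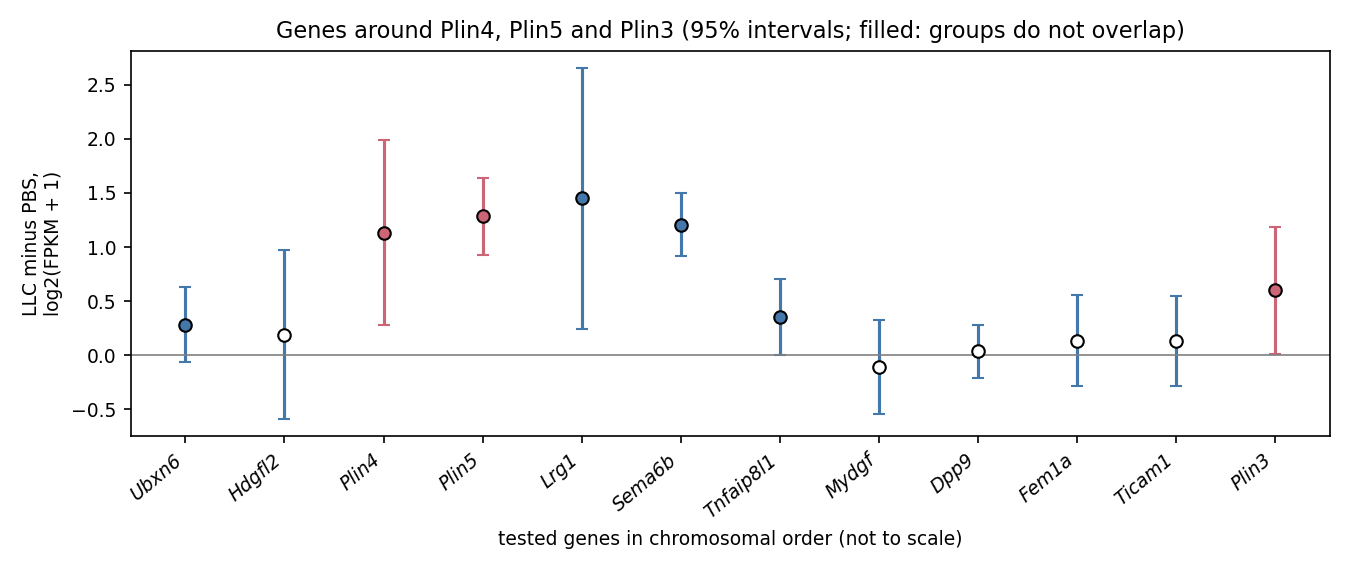
Log2(FPKM + 1) difference, LLC minus PBS, with 95% interval, for the 12 tested genes from Ubxn6 to Plin3 in chromosomal order, with perilipins in red and filled symbols where the groups do not overlap. Plin4, Plin5, Lrg1 and Sema6b follow each other at differences above 1.

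Triglyceride lipases and their regulators, activators and inhibitors among them, were described from a list of 9 genes. In limma 0 of 9 passed at an adjusted p under 0.05, with 3 higher and 1 lower at an unadjusted p under 0.05. The median log2 difference was 0.57, against 0.014 over all genes tested. Of all 12981 genes tested, 755 were higher and 236 lower at an unadjusted p under 0.05 in limma. LLC libraries lay above all PBS libraries in 1233 of them and below in 512. Mgll, which splits monoglycerides, differed by 0.84, Pnpla2, the triglyceride lipase that Plin1 and Plin5 restrain, by 0.65, and G0s2, an inhibitor of Pnpla2, by 0.77, and in each the LLC libraries lay above all PBS libraries. Pnpla3, a relative of Pnpla2, was lower in all LLC libraries, by a log2 difference of -0.87. Abhd5, the activator that Plin1 and Plin5 bind, differed by 0.09.

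Genes that make triglyceride and form droplets had a median difference of 0.17 over 18 tested of 19, with 0 passing in limma and 4 higher at an unadjusted p under 0.05. These were Lpin3 (0.67) and Lpin1 (0.72), which make diacylglycerol, and Acsl1 (0.55) and Acsl3 (0.87), which activate fatty acids. The groups overlapped for Lpin1 and Acsl3 and not for Lpin3 and Acsl1. Over all genes tested, 5.82% were higher at an unadjusted p under 0.05 in limma, and 9.5% had all LLC libraries above PBS. Other coat proteins of the droplet, 12 tested of 15 listed, had a median difference of 0.11 and 0 at an unadjusted p under 0.05 in either direction. Cidea and Cidec, both of which enlarge droplets in fat cells, had the widest spread. Cidea was at 0.068 to 2.09 FPKM in PBS and 0.574 to 8.42 FPKM in LLC. Vps13d (0.19) and Spast (-0.15) differed little, although all LLC libraries lay above PBS for Vps13d. Hsd17b13 and Spart of that list were not found by symbol.

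The fat oxidation genes and PPAR targets, the class to which Plin2, Plin4 and Plin5 are also assigned, had 23 of 24 tested genes above 0, with a median log2 difference of 0.66. Of the 24, 0 passed in limma, and 19 were higher and 0 lower at an unadjusted p under 0.05. LLC libraries lay above all PBS libraries in 20. Over all genes tested, 5.82% were higher at an unadjusted p under 0.05 in limma, and LLC libraries lay above all PBS libraries in 9.5%. Plin5, at 1.28, exceeded that median, and Plin2, at 0.49, did not reach it. Pdk4, which turns pyruvate away from oxidation, differed by 3.49, with values of 33.6, 18.3 and 19.6 FPKM in PBS and 154, 340 and 370 FPKM in LLC. Fabp3, the fatty acid carrier of muscle, differed by 1.73, Acot2, a mitochondrial thioesterase, by 1.38, and Mlycd, which removes malonyl-CoA, by 0.99.

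The receptors themselves and their partners gave a different picture. Among 12 tested genes the median difference was 0.03, and 0 reached an unadjusted p under 0.05 in either direction. Ppard, the PPAR most abundant in muscle, differed by 0.18, the corepressor gene Nrip1 by 0.33, and the partner Rxrg by -0.25. LLC libraries lay above all PBS libraries in 1 of the 12, Ppard, and in 9.5% of all genes tested. The lists were chosen with earlier results of these data known, and the fat oxidation list was known to be high. Their counts are therefore descriptions.

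**Figure D4:**
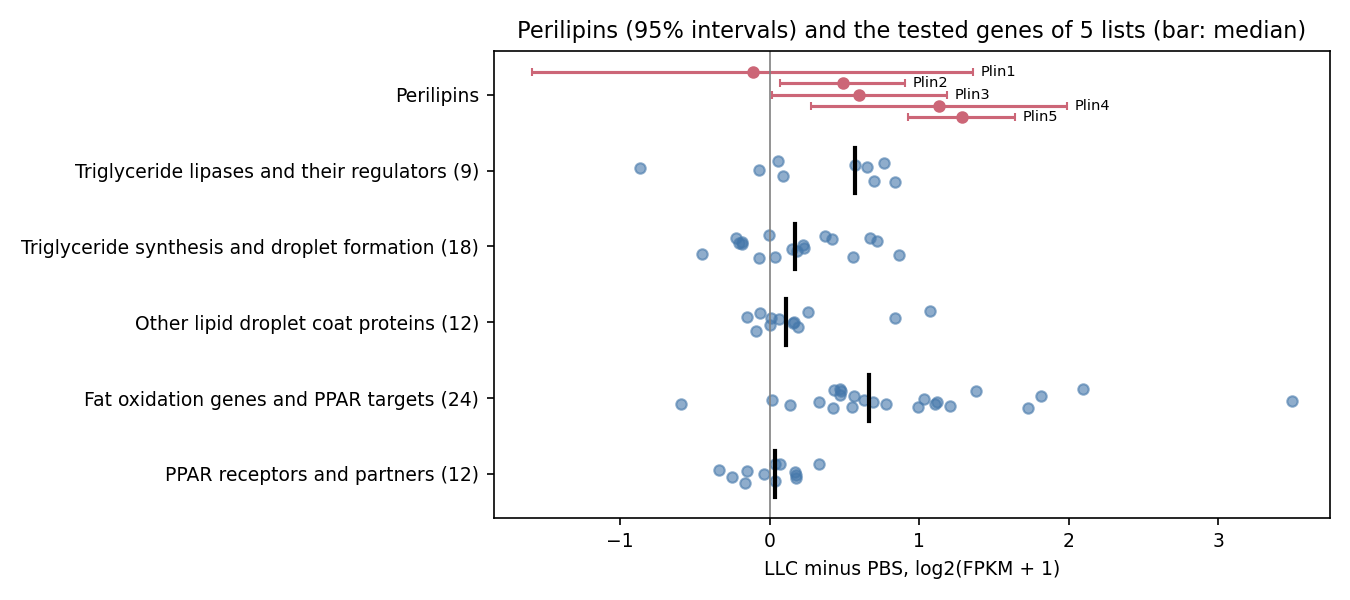
Log2(FPKM + 1) difference, LLC minus PBS, of the 5 perilipins (red, with 95% intervals) and of each tested gene of 5 lists (blue points, black bar at the median). Plin4 and Plin5 lie above the median of the fat oxidation genes, and the receptor genes lie around 0.

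Across the 6 libraries, the genes with the most similar profile to Plin5 by Pearson r of log2(FPKM + 1) were BC048679, Arl15, Acadvl and Acadl (r = 0.99 to 0.998). For Plin4 they were Pdgfb, Tbc1d4, Otud3 and Klhl21 (0.99 to 0.996), for Plin3 Tango2, Cebpd, Cfap298 and Eef2 (0.99 to 0.999), for Plin2 Smagp, Chchd3, 9330133O14Rik and Spint2 (0.98 to 0.99), and for Plin1 A530016L24Rik, Pet117, Hist1h1e and Bche (0.97 to 0.99). With 6 points that share library depth and group, 0.378% to 2.50% of tested genes exceeded an r of 0.9 with a given perilipin. Within the family, Plin2 and Plin3 were the most alike (0.89), Plin5 came to 0.86 with Plin2, 0.81 with Plin3 and 0.71 with Plin4, and Plin1 was negative with each except Plin4 (0.38).

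In C2C12 myotubes, Plin2 had 4 annotated peaks, Plin3 and Plin4 had 1 each, and Plin1 and Plin5 had none. Over the 15102 genes named on a peak, the median was 2 peaks, and 20.3% had 4 or more. The nearest peak to the Plin5 start was the Plin4 promoter peak, 7362 bp away, and the nearest to the Plin1 start was 14602 bp away and annotated to Wdr93. The absence of a peak says that none was listed there, not that the promoter is closed.

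The libraries of this assay differed in the share of tags that peaks took. It was 27.0% in control 1, 13.1% and 17.9% in controls 2 and 3, and 12.0% to 13.5% in the C26 libraries. Values per 10 M tags were lower after C26 medium at most peaks, with a median log2 difference of -0.54. Median-of-ratios scaling, which sets each library to the typical peak, brought that median to -0.02. Whether the shift came from the libraries or from the medium was not tested, and this scaling removes either. Both scales are given. As deposited, 1.88% of the 37358 tested peaks fell in limma at an adjusted p under 0.05 and C26 libraries were all below control in 34%. After scaling, 12.7% fell, 17.1% rose, and 19.4% had C26 libraries all below control.

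The Plin3 promoter peak (chr17:56290258-56291575, centred 405 bp before the start) was the strongest of the 6 and fell with C26 medium after median-of-ratios scaling. As deposited it measured 255, 126 and 171 tags per 10 M in controls 1 to 3 and 104, 87.8 and 110 after C26 medium. All C26 libraries lay below all controls, as in 34% of tested peaks. The log2 difference was -0.81 (SE 0.33, 95% interval -1.46 to -0.16), with an adjusted p of 0.113 in limma. After scaling, the controls stood at 143, 149 and 148 and the C26 libraries at 125, 113 and 125, close to each other within each group. The difference was then -0.28 (SE 0.09, 95% interval -0.46 to -0.10), with an adjusted p of 0.0132 in limma, and -0.30 with an adjusted p of 0.0134 when control 1 was also left out. With quantile normalization it was -0.18, with an adjusted p of 0.0524 in limma, so the call was lost. Among 10208 genes with a peak within 1000 bp of their start, that peak was called lower after median-of-ratios scaling in 2213 and higher in 221 at an adjusted p under 0.05 in limma, and the median difference was -0.17.

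The Plin4 promoter peak (chr17:56109454-56110186) measured 38.9, 21.9 and 26.7 tags per 10 M in the controls and 19.5, 22.2 and 29.9 after C26 medium. The groups overlapped. The difference was -0.26 as deposited (95% interval -1.05 to 0.53) and 0.26 after scaling (95% interval -0.11 to 0.62), with adjusted p of 0.638 and 0.302 in limma, so its direction depended on the scale.

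At Plin2, the promoter peak (chr4:86669281-86670271, centred 283 bp after the start in intron 1) covers 212 of the 250 bases printed above, while the windows of Plin3 and Plin4 are covered in full. It measured 76.4, 39.2 and 44.0 tags per 10 M in the controls and 38.6, 41.7 and 38.5 after C26 medium. Control 1 stood apart and the others were level. The difference was -0.36 as deposited (adjusted p 0.487 in limma) and 0.17 after scaling (95% interval -0.10 to 0.43, adjusted p 0.353).

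A peak near the far end of Plin2, in intron 7 of 7 (chr4:86657266-86657723), measured 48.3, 22.6 and 32.6 in the controls and 13.3, 18.1 and 20.1 after C26 medium. Its C26 libraries lay below all controls on both scales, which held for 34% of tested peaks as deposited and 19.4% after scaling. The difference was -0.92 as deposited (SE 0.41, adjusted p 0.130 in limma) and -0.41 after scaling (SE 0.19, 95% interval -0.80 to -0.02, adjusted p 0.103), so it did not pass. It rests on 34 to 108 read ends per library.

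The remaining pair of Plin2 peaks lies between genes. The peak 13937 bp before the start (chr4:86683782-86684211) measured 70.6, 32.7 and 43.5 in the controls and 36.7, 30.5 and 46.7 after C26 medium, with differences of -0.31 as deposited and 0.22 after scaling. The peak 20371 bp before the start (chr4:86690317-86690543) was the weakest, at 15.2, 8.44 and 8.90 in the controls and 11.7, 8.68 and 7.69 after C26 medium, with differences of -0.17 and 0.32. Neither passed in limma on either scale, and the groups overlapped in both. Of the 6 perilipin peaks, then, 0 were called as deposited and 1, which fell, after scaling. Over all tested peaks, 12.7% were called lower and 17.1% higher after scaling, so 1 call in 6 does not set the perilipin peaks apart.

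**Figure D5:**
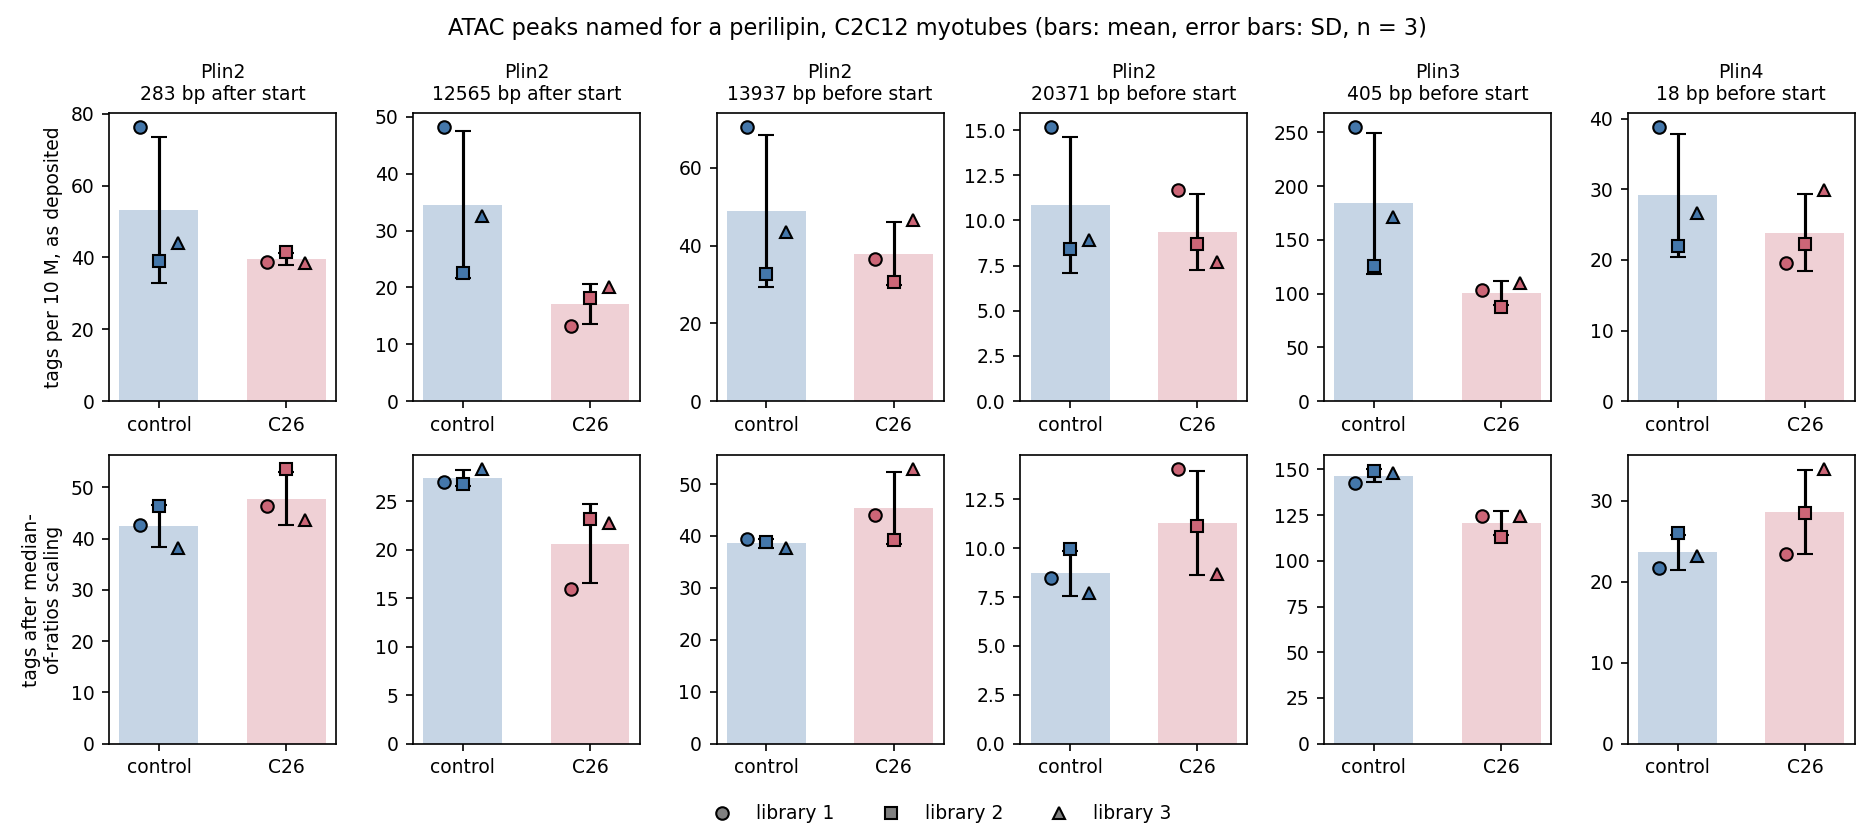
Tags in the 6 perilipin peaks in the 3 control and 3 C26 libraries, per 10 M tags as deposited (top) and after median-of-ratios scaling (bottom), with bars for the mean and error bars for the SD (n = 3). Control 1 is the highest control in each peak of the top row. In the bottom row the Plin3 peak and the intron 7 peak of Plin2 are lower in all C26 libraries, as in 19.4% of tested peaks.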

How the data were processed

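RNA values are FPKM that the authors made with HOMER from exons of 1 RefSeq transcript per gene in mm10, reads of both strands counted, per the file headers. The ATAC table holds signal, namely tag numbers in a merged peak list after scaling of each library to 10 M tags, per the file headers of the deposited table. HISAT2, HOMER, DESeq2, Bowtie2 and MACS2 are named in the submitters' processing notes, without versions or roles. The sources used here do not state trimming, duplicate handling or the peak threshold.

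Values were fitted as log2(value + 1), which understates the fold of low genes, in R 4.3.3 with limma 3.58.1 (trend, two-sided, Benjamini-Hochberg). A gene was tested if its mean reached 1 FPKM, which 12981 of 20194 did, and a peak if its mean reached 5 tags, which 37358 of 38244 did. For RNA, the step of 1 read end was fitted in each library to the low products of value and length. For ATAC, values were multiplied by the library total. The results fell on whole steps within 0.1 for 100% of values checked. These were 2519 to 2605 low values per RNA library and all 38244 per ATAC library, so higher RNA values were not checked. The read ends so recovered went into edgeR 4.0.16 as an alternative. The pipeline was tested on simulated data. The other alternatives were other pseudocounts and filters, TPM, scaling by quantiles or by median-of-ratios, a fit without trend, a replicate block and leaving out each library, and median-of-ratios scaling without control 1 was added after the data were seen. Plots used Python 3.11.15 and matplotlib 3.10.9.

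The members and lists were chosen with earlier results of these data known. Named genes are the perilipins, up to 4 tested genes of each list with the smallest p, the nearest genes on either side, and the 4 with the highest r per perilipin. Others were named after their values were seen. A gene that the rule names is not reported here. RefSeq promoters matched all 5 perilipins, with 2 starts for Plin5, of which the one matching the RNA table is printed. The RefSeq start of Plin4 is 56109782, and the RNA table gives 56109802.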

Additional observations from a re-analysis of the deposited data

How the results depend on the processing

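Plin2, Plin3, Plin4 and Plin5 kept their direction under all 16 RNA alternatives, at 0.34 to 0.62, 0.39 to 0.79, 0.83 to 1.43 and 1.20 to 1.50, and none was called in any. Plin1 changed sign with edgeR (0.17) and ranged from -0.76 to 0.33 with 1 library left out. With a mean of at least 5 FPKM, TPM, median-of-ratios or quantile scaling, 1 gene, Grrp1, was called in place of 0 by limma (991 at an unadjusted p under 0.05; edgeR called 0, with 932). The deviations of same-numbered libraries correlated at -0.09, 0.60 and -0.60 in the RNA, so the numbers were not taken as pairs. With the replicate block, Plin5 stayed at 1.28 (adjusted p 0.642), and 1071 ATAC peaks were called in place of 1132. The block changed no other perilipin call.

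Scaling decided most ATAC directions. With median-of-ratios, quantile normalization, edgeR, and median-of-ratios without control 1, in that order, the Plin2 promoter peak gave 0.17, 0.14, 0.17 and 0.17, the peak 13937 bp before Plin2 0.22, 0.19, 0.25 and 0.23, the peak 20371 bp before it 0.32, 0.088, 0.35 and 0.30, and the Plin4 peak 0.26, 0.16, 0.31 and 0.20. The Plin3 peak was called at -0.28 with median-of-ratios, at -0.27 with edgeR and at -0.30 without control 1, but not with quantile normalization (-0.18, adjusted p 0.0524). The intron 7 peak of Plin2 was called with quantile normalization at -0.52. With 1 library left out of the deposited values, these ranged from -1.05 to -0.55 and from -1.19 to -0.66, both called without control 2. The peak 20371 bp before Plin2 ranged from -0.32 to 0.081, positive without control 1. Perilipin peaks called numbered 1 in each of the 4 scaled fits and 0 to 2 with a library left out. Peaks called overall were 471 at a mean of at least 20 tags, 11124 with median-of-ratios, 10999 with quantile normalization, 2602 without a trend, 11354 with edgeR, 9475 with median-of-ratios without control 1, and 123 to 20607 with a library left out. Of all calls, 62.2% were lower as deposited and 42.7% after median-of-ratios scaling. With 3 libraries a group, intervals stay wide.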

Other observations

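Promoter peaks of the other lipid droplet genes were described in the C2C12 libraries for the same lists. Over all 10208 genes with a peak within 1000 bp of the start, 2213 such peaks were called lower and 221 higher after median-of-ratios scaling in limma. Of 9 genes of lipases and their regulators, 7 had a peak within 1000 bp of the start, and after median-of-ratios scaling 1 fell in limma and 0 rose. For triglyceride synthesis and droplet formation, 14 of 19 genes had one, and 1 fell and 1 rose. For the other coat proteins, 9 of 15 had one, and 4 fell and 1 rose. Fat oxidation genes had one in 15 of 24, with 2 lower and 1 higher, and the PPAR receptors and partners in 9 of 12, with 4 lower and 0 higher. The median scaled log2 differences were -0.23, -0.13, -0.24, -0.07 and -0.29 in that order, beside -0.17 over 10208 genes. As deposited, 1 of these promoter peaks, in the fat oxidation list, was called lower and 0 were called higher. Over the 10208 genes, 100 were called lower and 5 higher as deposited.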
